A study of Mus musculus with 6 samples.

Results

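The transcripts examined here are those of 56 genes that mark the male germ line, from spermatogonia through meiosis to spermatids, in GC-2spd cells. The members were taken from a list of gene symbols, and all 56 had a row among the 43412 annotated genes. Poly(A) RNA was sequenced in 6 libraries of this mouse line, 3 of hypoxia-treated cells held in a 1% oxygen workstation and 3 of normoxic cells held in an incubator at 21% oxygen. Both groups carry the labels testis and C57BL/6J and were grown in the same serum-containing medium. Levels are given as TPM, the share of the transcript pool that StringTie assigns to a gene after scaling for transcript length, so levels can be set side by side between genes. A gene was tested where its mean TPM over the 6 libraries was at least 1, which held for 6 members and for 13749 genes in all.

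GC-2spd is one immortalized line, made by introducing the SV40 large T antigen and a temperature-sensitive p53 into mouse spermatocytes. In the testis, spermatogonia divide by mitosis until STRA8 and its partners start the meiotic programme. Spermatocytes then cut their DNA with SPO11 at places marked by PRDM9, repair the breaks with DMC1 and MSH4-MSH5, and hold paired chromosomes together with the synaptonemal complex, a ladder whose rungs are built from SYCP1, SYCE1, SYCE2, SYCE3 and TEX12. PIWI proteins and their small RNAs silence transposons over the same period, and spermatids finally exchange histones for transition proteins and protamines. Most of these genes are silent in somatic cells, which makes them a test of what a cultured line still expresses.

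The hypoxia labels were checked first with 3 genes that low oxygen is known to induce. Ero1l, an oxidase of the endoplasmic reticulum, averaged 603 ± 9.11 TPM in hypoxia-treated cells and 45.5 ± 1.48 TPM in normoxic cells (SD, n = 3 each), and Egln3 and Vegfa were also higher, with log2 fold changes of 2.26 and 1.92. Pearson correlation of log2 levels across genes was 0.988 to 0.989 between libraries of one group and 0.951 to 0.953 between groups. Aligned bases ranged from 5.80 to 6.72 gigabases per hypoxic library and from 5.75 to 6.61 gigabases per normoxic library. Nothing in the labels tells separate cultures from repeat libraries of one culture, so p-values measure only the spread between these libraries, which may be technical.

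Most germ line genes of the list were at or near 0 under both oxygen levels. At a mean of at least 1 TPM stood 5 of the 56 members (8.93%) in hypoxia-treated cells and 6 (10.7%) in normoxic cells. Among protein-coding genes the share at this level was 51.8% in hypoxia-treated cells and 52.9% in normoxic cells. A total of 21 members were listed at 0 in every library, and another 29 were above 0 in at least 1 library while their mean stayed under 1 TPM. Of these 29, only 8 were above 0 in all 6 libraries, 7 were above 0 in a single library, and 25 had a coverage under 1 read per base in every library. The files hold no counts, so a value of 0 says that the gene was listed at 0, and no detection limit could be calculated. As a check of such zeros, 146 proteasome, ribosome and other housekeeping genes were looked up, a list drawn up after the data had been seen. The 2 with a 0 in any library were Psma8, the proteasome subunit of spermatocytes, and Psmb11, the subunit of thymic epithelium. Housekeeping genes are used by every cell, so this check cannot show how weakly expressed genes are listed. By the listed levels alone, most of the list goes against the germ cell label. The genes are described below by their roles.

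**Figure D1:**
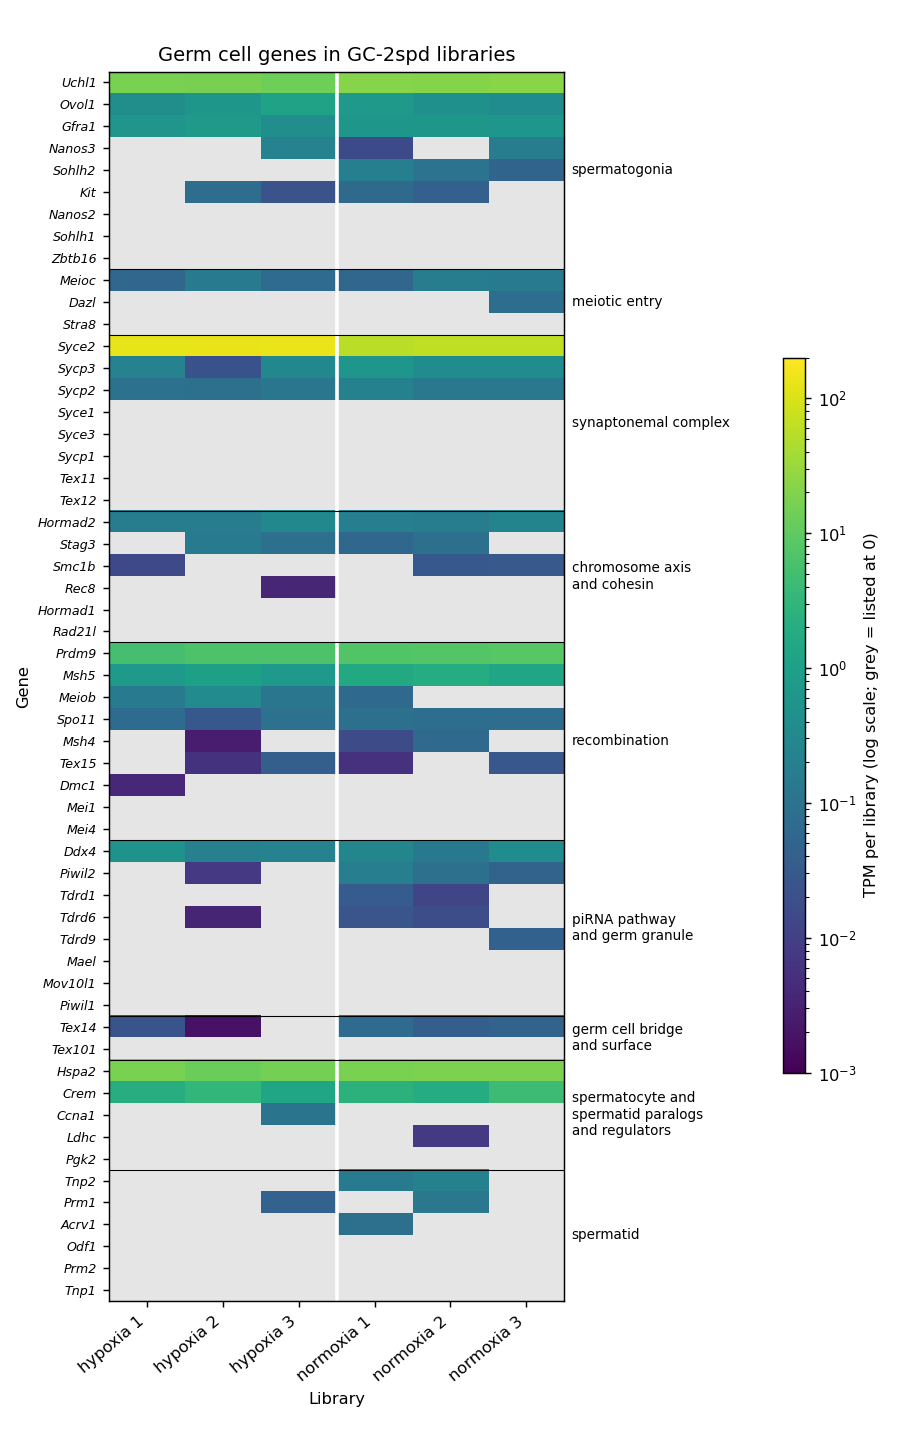
TPM of each of the 56 genes (rows, grouped by role) in each library (columns, hypoxia 1 to 3 and then normoxia 1 to 3), on a logarithmic colour scale with genes listed at 0 in grey. The bright rows are Syce2, Uchl1, Hspa2, Prdm9, Crem and Msh5, and 21 rows are grey in all 6 libraries.

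Of the 6 tested members, Syce2 was higher in hypoxia-treated cells, Uchl1 and Msh5 were lower, and Prdm9, Hspa2 and Crem were not called. The call was made with limma at an adjusted p under 0.05. Of all tested genes 54.0% were called, 17.9% as higher and 36.1% as lower, so 3 calls among 6 members are close to the background share. The median log2 fold change of the 6 members was −0.28, with 5 of 6 negative, beside −0.13 over all tested genes. Changes on the TPM scale are thus read against a typical gene that was itself lower by 0.13. Where the libraries were scaled on the median ratio of their genes, that overall shift became −0.0037. The 6 are not a sample of the list, since a gene reached the test only through its level, and Msh5 reached the filter through its normoxic libraries alone. In bulk libraries, fewer cells that hold an RNA and less of that RNA per cell cannot be told apart.

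**Figure D2:**
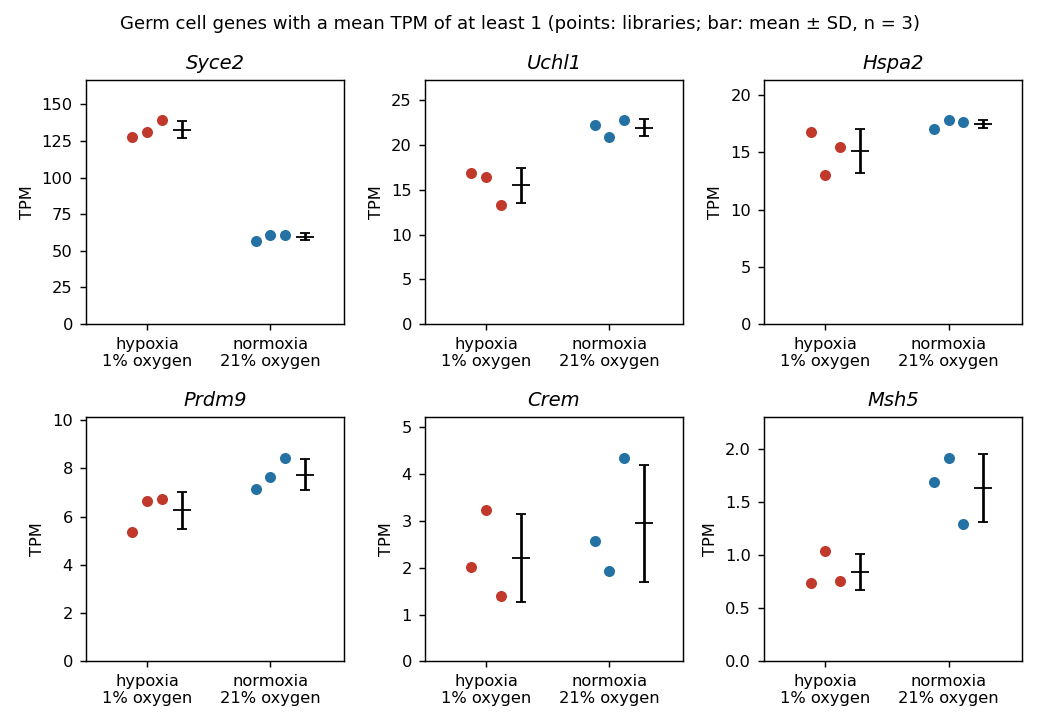
TPM (vertical axis, from 0) of the 6 members with a mean TPM of at least 1, in hypoxia-treated cells (left, red) and normoxic cells (right, blue), with a point per library and the mean ± SD beside it (n = 3). The groups are far apart for Syce2, separate without overlap for Uchl1, Hspa2, Prdm9 and Msh5, and overlap for Crem.

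Among the 8 genes of the synaptonemal complex, Syce2 alone was expressed well above 1 TPM. SYCE2 is a coiled-coil protein of the central element that assembles into fibres with TEX12. Syce2 (ENSMUSG00000003824, mm10 chromosome 8, 84872111 to 84888221, plus strand) had 127.5, 131.3 and 139.0 TPM in hypoxia-treated cells, against 56.7, 61.1 and 61.0 TPM in normoxic cells. The groups lay far apart, and the lowest hypoxic library was above the highest normoxic one by more than the whole normoxic level. The ratio of the means, 132.6 ± 5.85 TPM in hypoxia-treated cells and 59.6 ± 2.53 TPM in normoxic cells (SD, n = 3 each), was 2.23. The log2 fold change was 1.14 (standard error 0.05, limma adjusted p = 1.346e-05), which placed Syce2 at position 277 of 13749 tested genes by log2 fold change. By level it was gene 1140 of 43412 in hypoxia-treated cells and gene 3009 in normoxic cells. Its coverage was 98.4 to 240.0 reads per base, and no annotated exon of another gene overlapped its own. The call was kept under each of the 17 alternative settings, with log2 fold changes of 1.07 to 1.28.

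The partners of SYCE2 in the complex were listed at 0 or stayed under 1 TPM. Sycp1, the transverse filament, Syce1, Syce3 and Tex12, the other central element genes of the list, and Tex11, an X-linked gene of meiotic recombination sites, were listed at 0 in all 6 libraries. Sycp2 and Sycp3, which form the lateral elements along each chromosome, stayed under 1 TPM. Sycp3 had 0.225, 0.0214 and 0.299 TPM in hypoxia-treated cells, against 0.604, 0.376 and 0.373 TPM in normoxic cells. Its hypoxic libraries were all below its normoxic ones, but 660 of its exon bases are shared with Chpt1, a gene on the opposite strand that stood at 17.4 TPM in hypoxia-treated cells and 21.8 TPM in normoxic cells, and the sources do not say whether strand was used. Sycp2 ranged from 0.0892 to 0.122 TPM in hypoxia-treated cells and from 0.130 to 0.211 TPM in normoxic cells.

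The sequences before the start sites of Syce2, Sycp1 and Sycp3 are shown because, within one structure, Syce2 was the highest member, Sycp1 was at 0 and Sycp3 lay below the filter. They were read from RefSeq (GRCm38.p6, the assembly of mm10), 5′ to 3′ on the strand of each gene, and capitals mark a match to one of 5 motifs searched on both strands. These were ACGTG, the core of the hypoxia response element, its variant GCGTG, the E-box CACGTG, which contains the first of these, GCGGGAA, the E2F6-type site known from germ line promoters, and TGACGTCA, the full cyclic AMP response element that CREM binds. In the 250 bases before the first start of Syce2 (chr8:84871861-84872110, plus strand) the search found no match. The window of Sycp1 (chr3:102936101-102936350, minus strand) held CACGTG once and GCGTG once on the other strand, printed as CACGC. The stretch printed for Sycp3 (chr10:88459337-88459568, plus strand) ends where an annotated exon begins and held GCGGGAA and CACGTG at 2 places.
Syce2, before the first start: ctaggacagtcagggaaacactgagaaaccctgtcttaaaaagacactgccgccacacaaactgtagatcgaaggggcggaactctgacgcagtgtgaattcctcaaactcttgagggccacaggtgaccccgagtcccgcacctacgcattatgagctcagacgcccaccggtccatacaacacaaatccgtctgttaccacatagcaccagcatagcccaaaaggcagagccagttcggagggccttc
Sycp1: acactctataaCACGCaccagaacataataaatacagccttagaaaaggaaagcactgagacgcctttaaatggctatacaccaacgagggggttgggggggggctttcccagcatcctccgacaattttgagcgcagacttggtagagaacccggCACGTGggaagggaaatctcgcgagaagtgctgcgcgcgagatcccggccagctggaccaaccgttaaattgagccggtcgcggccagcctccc
Sycp3: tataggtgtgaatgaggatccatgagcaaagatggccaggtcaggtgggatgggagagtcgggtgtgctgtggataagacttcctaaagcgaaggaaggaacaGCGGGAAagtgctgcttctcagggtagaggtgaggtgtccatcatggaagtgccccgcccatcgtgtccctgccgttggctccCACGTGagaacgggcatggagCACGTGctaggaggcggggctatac

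RefSeq lists a second start for Syce2, 147 bases downstream of the first, and the bases before it held 4 of the motifs. CACGTG began 88 bases before this second start (chr8:84872158-84872187, plus strand), GCGTG occurred 3 times between 71 and 55 bases before it, and GCGGGAA began 34 bases before it (chr8:84872213-84872242, plus strand). They lie inside the annotated gene, after its first start, and gene-level TPM does not tell the starts apart.
Syce2, CACGTG before the second start: cgtttcattcagCACGTGctcggggcgggg
Syce2, GCGGGAA before the second start: agggcgctgagGCGGGAAaagacggaatgg
A match is a description of these letters and no evidence that a factor binds there.

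Across the list, 46 of the 56 members had a promoter window of 250 bases before and 50 bases after the start, the first one where RefSeq lists several. CACGTG was in 12 of these windows (26.1%), beside 8.16% of 16317 genes. All 12 genes were below the filter or at 0 (Ddx4, Hormad1, Mael, Mov10l1, Piwil1, Sohlh1, Stag3, Sycp1, Sycp3, Tdrd1, Tdrd9 and Tex12). So were 50 of all 56 members, and no link between CACGTG and level is read from this. The CACGTG before the second start of Syce2 was not counted, since its window was that of the first start. GCGGGAA was in 10 windows (21.7%), beside 6.25% of all genes, and its holders included Msh5 and Prdm9. ACGTG was in 17 windows (37.0%), beside 21.1% of all genes, and GCGTG was in 21 (45.7%), beside 39.8%. TGACGTCA was in no window of the members and in 2.43% of all windows. No change in hypoxia was read from these shares, since 50 members were below the filter of the main test.

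**Figure D3:**
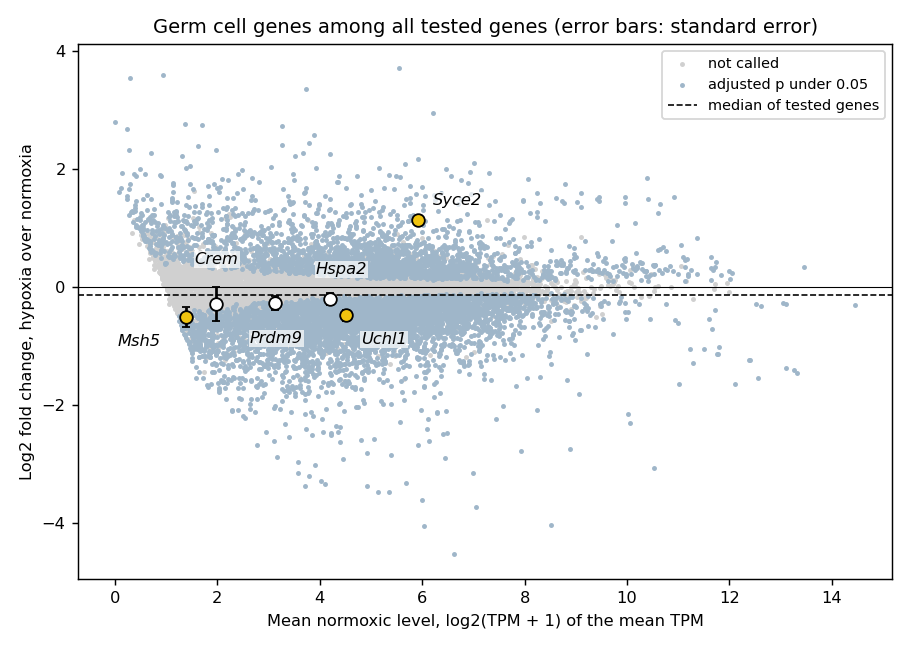
Log2 fold change of hypoxia over normoxia (vertical axis) against the mean normoxic level (horizontal axis, log2 scale) for the 13749 tested genes, with the 6 tested members as large points and their standard errors as bars. Members that were called are filled in yellow and the others in white; Syce2 stands at 1.14, and the other 5 members lie between −0.51 and −0.20, all below the dashed median of −0.13.

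Of the 9 genes of meiotic recombination, Prdm9 and Msh5 were measured above 1 TPM and the rest were not. PRDM9 is the zinc finger methyltransferase that marks recombination hotspots in meiotic prophase. Prdm9 (ENSMUSG00000051977, chromosome 17, 15543079 to 15564354, minus strand) had 5.38, 6.64 and 6.73 TPM in hypoxia-treated cells, against 7.14, 7.63 and 8.43 TPM in normoxic cells. The groups did not overlap, which was so for 62.4% of tested genes, and the highest hypoxic library came near the lowest normoxic one. The log2 fold change was −0.27 (standard error 0.11), and Prdm9 was not called (limma adjusted p = 0.07827, and 0.03636 to 0.7178 over the alternatives). It passed the threshold with FPKM in place of TPM.

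MSH5 forms a clamp with MSH4 that stabilizes crossover intermediates. Msh5 (ENSMUSG00000007035, chromosome 17, 35028605 to 35046745, minus strand) had 0.740, 1.04 and 0.753 TPM in hypoxia-treated cells, against 1.69, 1.91 and 1.29 TPM in normoxic cells. All hypoxic libraries were below all normoxic ones, at a coverage of 1.35 to 3.87 reads per base. The log2 fold change of log2(TPM + 1) was −0.51 (standard error 0.17, limma adjusted p = 0.03637), which understates the ratio of the means, 0.518. This call did not survive median-ratio scaling (limma adjusted p = 0.06327) or quantile normalization (0.09245), and it was lost without hypoxia replicate 1 or 3 and without normoxia replicate 1 or 2. Its partner Msh4 was above 0 in 3 libraries, with at most 0.0635 TPM.

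Short stretches before the starts of Msh5 (chr17:35046669-35046698, minus strand) and Prdm9 (chr17:15564383-15564412, minus strand) are shown because these were the tested members whose windows held GCGGGAA. The Msh5 stretch lies before the RefSeq start but within the span GENCODE gives for the gene, and the Prdm9 stretch lies outside its gene. The match began 65 bases before the Msh5 start, and for Prdm9 it lay on the other strand from 47 bases before the start, printed as TTCCCGC.
Msh5: tgacggaaaagGCGGGAAagtgctgcgaat
Prdm9: cgcttttcttgTTCCCGCccctcagccagc

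The genes that make and process meiotic breaks were near 0. Spo11, the enzyme that cuts the DNA, was above 0 in all 6 libraries, at 0.0293 to 0.0953 TPM in hypoxia-treated cells and 0.0800 to 0.0899 TPM in normoxic cells. Dmc1, the meiotic strand-exchange protein, was above 0 in 1 hypoxic library only, at 0.0041 TPM. Mei1 and Mei4, which are needed for break formation, were listed at 0, and Tex15 reached at most 0.0404 TPM. Meiob, a single-strand DNA binding protein of meiosis, had 0.145, 0.369 and 0.123 TPM in hypoxia-treated cells, against 0.0661, 0 and 0 TPM in normoxic cells. It was the one member below the filter whose hypoxic libraries all lay above the normoxic ones.

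Of the chromosome axis and its cohesins, the 6 members were at most at 0.300 TPM in any library. Hormad2, an axis protein of unsynapsed chromosomes, was the highest, with 0.166 to 0.300 TPM in hypoxia-treated cells and 0.172 to 0.247 TPM in normoxic cells. The meiotic cohesin subunits Stag3, Smc1b and Rec8 were each at 0 in at least 1 library of each group, and Hormad1 and Rad21l were listed at 0 throughout. Of the genes of meiotic entry, Stra8 was at 0, Dazl was above 0 in 1 normoxic library, and Meioc, a stabilizer of the meiotic programme, had 0.0552 to 0.156 TPM in hypoxia-treated cells and 0.0556 to 0.172 TPM in normoxic cells.

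Among the 9 genes grouped here as spermatogonial, Uchl1 was the highest and was lower in hypoxia-treated cells. UCHL1 is a ubiquitin hydrolase that is abundant in spermatogonia and also in neurons. Uchl1 (ENSMUSG00000029223, chromosome 5, 66676091 to 66687234, plus strand) had 16.8, 16.4 and 13.3 TPM in hypoxia-treated cells, against 22.2, 20.8 and 22.8 TPM in normoxic cells. The groups did not overlap, and hypoxia replicate 3 was the lowest library. The means were 15.5 ± 1.95 TPM in hypoxia-treated cells and 21.9 ± 0.983 TPM in normoxic cells (SD, n = 3 each), with a log2 fold change of −0.48 (standard error 0.10, limma adjusted p = 0.005904). Quantile normalization ended the call at −0.30 (limma adjusted p = 0.05213, the highest of the 17 alternatives, whose lowest was 0.004623). The antisense gene Uchl1os shares 295 exon bases with Uchl1 and was itself at most at 0.0011 TPM on average in either group.

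Gfra1 and Ovol1, both grouped here with the spermatogonial genes, were just below the filter. Gfra1, the GDNF co-receptor of stem spermatogonia, had 0.570, 0.704 and 0.390 TPM in hypoxia-treated cells, against 0.631, 0.652 and 0.599 TPM in normoxic cells. Ovol1, a zinc finger factor also known from epidermis, had 0.422, 0.637 and 1.11 TPM in hypoxia-treated cells, against 0.694, 0.458 and 0.372 TPM in normoxic cells. The groups overlapped for both genes. The difference of means was −0.0724 TPM for Gfra1 and 0.216 TPM for Ovol1, each with p = 0.6 in a 2-sided exact permutation test, whose smallest possible p with 3 libraries against 3 is 0.1. Nanos2, Sohlh1 and Zbtb16, factors of undifferentiated and differentiating spermatogonia, were listed at 0. Kit, the receptor of differentiating spermatogonia, stayed at or below 0.0784 TPM, and Nanos3 at or below 0.226 TPM. Sohlh2 was at 0 in the 3 hypoxic libraries and at 0.0505 to 0.190 TPM in the normoxic ones.

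The piRNA pathway and germ granule genes numbered 8, and the highest TPM of an annotated gene in any library was 0.526, for Ddx4. Ddx4, the VASA helicase found in germ cells of most animals, had 0.526, 0.201 and 0.223 TPM in hypoxia-treated cells, against 0.277, 0.139 and 0.387 TPM in normoxic cells. The groups overlapped. Piwil1, Mael and Mov10l1, which act in loading and processing piRNAs, were listed at 0. Piwil2 was at 0, 0.0075 and 0 TPM in hypoxia-treated cells, against 0.184, 0.0906 and 0.0488 TPM in normoxic cells, and Tdrd1, Tdrd6 and Tdrd9, scaffold proteins of the granules, reached at most 0.0433 TPM. Tex14, a protein of the bridges between germ cells, ranged from 0 to 0.0233 TPM in hypoxia-treated cells and from 0.0397 to 0.0718 TPM in normoxic cells, and Tex101, a germ cell surface protein, was listed at 0.

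Below the filter, 5 members (Sycp2, Sycp3, Piwil2, Sohlh2 and Tex14) had all hypoxic libraries below all normoxic ones, and 1 (Meiob) the opposite. These 6 were singled out after their values were seen. Among all 10205 genes above 0 with a mean under 1 TPM, 15.3% had groups that did not overlap, in either direction, beside 6 of the 29 members of that kind. With coverage mostly under 1 read per base, they were left out of the main test. In the fit with no filter, which 35 members entered, only Syce2, Uchl1 and Msh5 were called.

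The files also list loci that StringTie assembled from the reads, and those wholly within the span of a member, touching one of its exons and no other gene, were summed beside the annotated values. Such loci were above 0 for 10 members, 7 of them below the filter, and 4 of those 7 in a single library. Ddx4 had 4.23, 0 and 1.32 TPM of assembled loci in hypoxia-treated cells, against 0, 0 and 1.97 TPM in normoxic cells. Gfra1 had 0, 0.0972 and 0 TPM of them in hypoxia-treated cells, against 1.12, 0.337 and 1.55 TPM in normoxic cells, and Msh5 had 1.05, 0.987 and 0.468 TPM in hypoxia-treated cells, against 2.97, 2.31 and 4.21 TPM in normoxic cells. The groups did not overlap for Gfra1 and Msh5. The share of all assembled loci without overlap was not calculated, and the groups of the annotated Gfra1 values overlapped. Single libraries held 2.01 TPM at Meiob (hypoxia replicate 2) and 1.602 TPM at Hormad2 (normoxia replicate 3), and Sycp2 reached at most 1.496 TPM. Assembled loci can repeat an annotated value. Those of Hspa2 had 16.8 TPM in hypoxia replicate 1 and 17.1 TPM in normoxia replicate 1, equal to its annotated TPM there. Which transcripts the assembled loci are was not tested.

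The spermatid genes were at or near 0. Prm2 and Tnp1, a protamine and a transition protein that package sperm DNA, and Odf1, an outer dense fibre protein of the sperm tail, were listed at 0 in all libraries. Prm1 was above 0 in 1 hypoxic library (0.0468 TPM) and 1 normoxic library (0.128 TPM), Tnp2 in 2 normoxic libraries (0.148 and 0.212 TPM) and Acrv1, an acrosomal protein, in 1 normoxic library (0.0926 TPM). Both protamine genes are among the most abundant mRNAs of the testis once spermatids form.

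Among the germ cell paralogs and regulators, Hspa2 and Crem were measured above 1 TPM. HSPA2 is the HSP70 chaperone of pachytene spermatocytes. Hspa2 (ENSMUSG00000059970, chromosome 12, 76404176 to 76406938, plus strand) had 16.8, 13.1 and 15.5 TPM in hypoxia-treated cells, against 17.1, 17.8 and 17.6 TPM in normoxic cells. The groups did not overlap, though hypoxia replicate 1 came within a small step of normoxia replicate 1. The log2 fold change was −0.20 (standard error 0.10), and it was not called (limma adjusted p = 0.1147).

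CREM is the transcription factor that drives the spermatid programme, and the same gene also yields short repressor forms from an internal promoter in many tissues, which gene-level TPM does not separate. Crem (ENSMUSG00000063889, chromosome 18, 3266048 to 3337748, minus strand) had 2.01, 3.23 and 1.40 TPM in hypoxia-treated cells, against 2.57, 1.92 and 4.35 TPM in normoxic cells. The groups overlapped widely. Coverage varied less than TPM, at 1.41 to 1.80 reads per base over the 6 libraries, and the reason was not tested. Its log2 fold change was −0.29 with a standard error of the same size, 0.29 (limma adjusted p = 0.4301), and it moved to −0.05 without normoxia replicate 3, −0.10 without hypoxia replicate 3, −0.48 without normoxia replicate 2 and −0.51 without hypoxia replicate 2. Gm6225, on the opposite strand, shares 472 exon bases with it. Pgk2, the phosphoglycerate kinase of meiotic and later germ cells, was at 0 in all libraries. Ldhc, their lactate dehydrogenase subunit, was above 0 in 1 normoxic library (0.0080 TPM), and Ccna1, the meiotic A-type cyclin, was above 0 in 1 hypoxic library (0.108 TPM).

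Summed over the 56 genes, the level was 172 to 180 TPM per library in hypoxia-treated cells and 111 to 118 TPM in normoxic cells. Syce2 gave 74.3% to 77.3% of that sum in hypoxia-treated cells and 51.0% to 53.5% in normoxic cells. The other 5 tested members summed to 37.6 to 41.8 TPM in hypoxia-treated cells and 50.1 to 54.4 TPM in normoxic cells. The 50 genes below the filter together summed to only 2.32 to 3.27 TPM in hypoxia-treated cells and 2.84 to 3.74 TPM in normoxic cells, so the higher sum of the list in hypoxia was that of 1 gene.

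Many members have a related gene, here called the counterpart, that is used in somatic or mitotic cells, and 11 such pairs were compared. Whether a counterpart does the work of its germ line relative was not tested. In each pair the counterpart was higher than the germ line gene in every library. Pgk1 averaged 3828 ± 100.0 TPM in hypoxia-treated cells and 1363 ± 3.90 TPM in normoxic cells (SD, n = 3 each), with Pgk2 at 0, and Ldha averaged 2404 ± 75.5 TPM in hypoxia-treated cells and 1142 ± 83.5 TPM in normoxic cells. Both glycolytic genes were higher in hypoxia-treated cells, with log2 fold changes of 1.49 and 1.08 (limma adjusted p = 1.115e-06 and 2.157e-05).

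**Figure D4:**
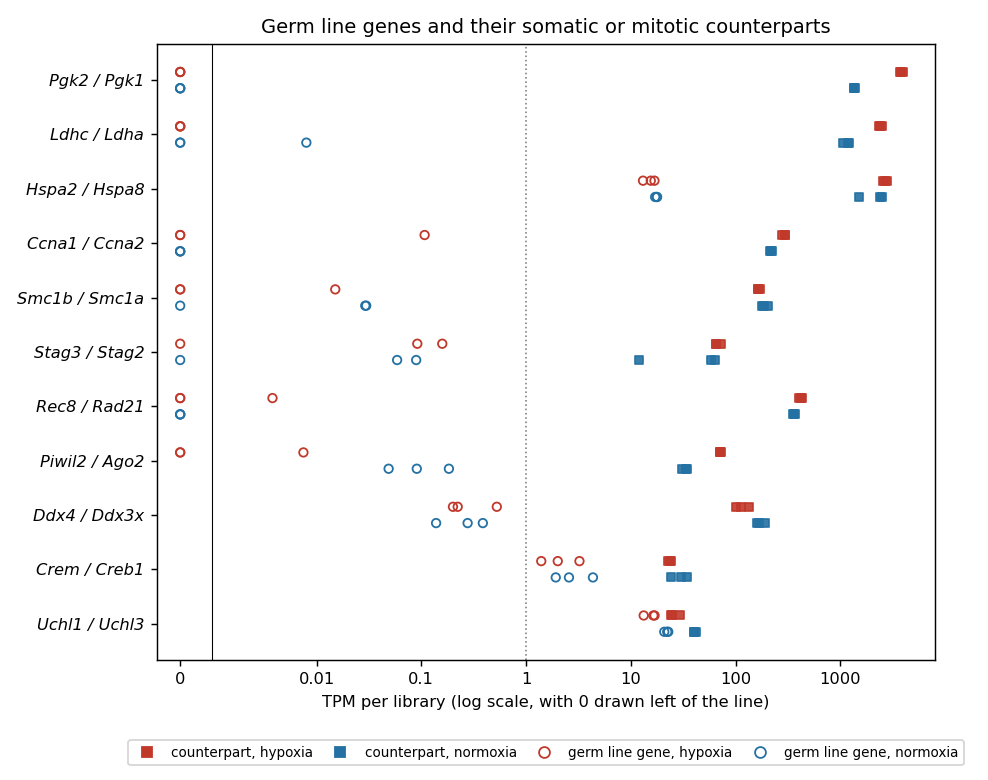
TPM per library (horizontal logarithmic axis, values of 0 drawn left of the line) of 11 germ line genes (open circles) and their somatic or mitotic counterparts (filled squares), in hypoxia-treated cells (red, upper row of each pair) and normoxic cells (blue, lower row). The squares lie to the right of the circles in every pair, and the gap is smallest for Uchl1 and Uchl3.

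The counterparts of the meiotic cohesin genes were expressed under both oxygen levels, and the 2 that were called moved in opposite directions. Rad21, the mitotic relative of Rec8, was slightly higher, at 415 ± 14.2 TPM in hypoxia-treated cells and 361 ± 9.42 TPM in normoxic cells (log2 fold change 0.20, limma adjusted p = 0.005554). Smc1a was lower, at 166 ± 5.71 TPM in hypoxia-treated cells and 190 ± 11.8 TPM in normoxic cells (limma adjusted p = 0.0247), a call lost in 7 of 17 alternatives, whose adjusted p ranged from 0.009207 to 0.4729. Stag2 was not called, with 64.4, 64.3 and 73.1 TPM in hypoxia-treated cells, against 12.0, 63.8 and 57.8 TPM in normoxic cells. Normoxia replicate 1 stood apart in TPM but not in coverage, which was 15.5 to 20.1 reads per base over the 6 libraries. The reason for this difference was not tested, so the TPM of Stag2 is not read as a difference between libraries.

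Of the remaining counterparts, Ago2, the somatic relative of the PIWI genes, was higher, at 71.1 ± 0.935 TPM in hypoxia-treated cells and 33.2 ± 1.90 TPM in normoxic cells (log2 fold change 1.08, limma adjusted p = 1.91e-05). It shares 219 exon bases with Chrac1 on the opposite strand. Ccna2 was higher, at 289 ± 9.92 TPM in hypoxia-treated cells and 218 ± 3.99 TPM in normoxic cells, and shares 510 exon bases with Exosc9. Ddx3x, the relative of Ddx4, was lower, at 116 ± 16.8 TPM in hypoxia-treated cells and 172 ± 15.6 TPM in normoxic cells. Uchl3 was lower, as its relative Uchl1 was, with 26.1 ± 3.03 TPM in hypoxia-treated cells and 40.7 ± 1.07 TPM in normoxic cells, and the ratio of Uchl3 to Uchl1 was 1.68 in hypoxia-treated cells and 1.86 in normoxic cells. Hspa8 (2666 ± 94.7 TPM in hypoxia-treated cells and 2139 ± 548 TPM in normoxic cells) and Creb1 (23.4 ± 0.800 TPM in hypoxia-treated cells and 29.5 ± 5.26 TPM in normoxic cells) were not called.

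A second list of 80 other germ line genes, taken from the same stages, gave a like picture of levels. A row was found for 76 of them, 29 were listed at 0 in all libraries, 32 were above 0 with a mean under 1 TPM, and 15 were tested. Of the 15, 4 were higher and 6 were lower in hypoxia-treated cells, and 5 were not called, beside background shares of 17.9% higher and 36.1% lower. Their median log2 fold change was −0.17, beside −0.13 for all tested genes. Several of these 15 are also expressed in dividing somatic cells, Trip13, Sun1 and Odf2 among them.

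**Figure D5:**
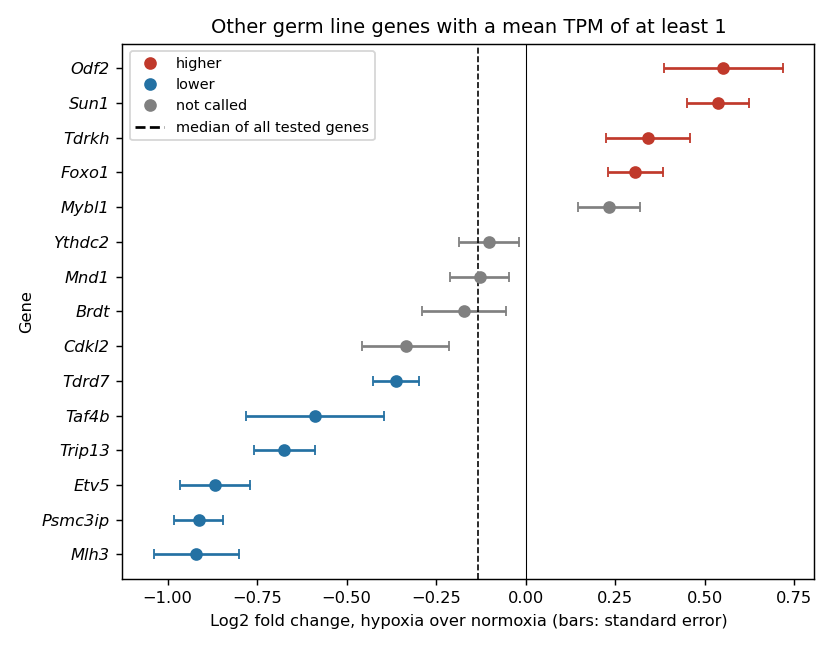
Log2 fold change of hypoxia over normoxia (horizontal axis) with its standard error for the 15 other germ line genes that were tested, in red where higher, blue where lower and grey where not called, with the median of all tested genes as a dashed line. Mlh3, Psmc3ip and Etv5 lie lowest, at −0.92, −0.91 and −0.87, and Odf2 and Sun1 highest, at 0.55 and 0.54.

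Among the lower genes were Mlh3, Psmc3ip and Trip13, which act in meiotic recombination. Mlh3, the crossover-promoting MutL protein, had 2.03, 1.65 and 1.87 TPM in hypoxia-treated cells, against 4.76, 4.37 and 4.03 TPM in normoxic cells (log2 fold change −0.92, limma adjusted p = 0.000728). Psmc3ip, also known as HOP2, which works with MND1 on strand exchange, had 26.8, 24.0 and 25.9 TPM in hypoxia-treated cells, against 52.2, 46.1 and 48.7 TPM in normoxic cells (log2 fold change −0.91, standard error 0.07). Their groups were well apart, and 385 exon bases of Psmc3ip are shared with Mlx on the opposite strand. Trip13, the ATPase that remodels HORMA domain proteins, was at 22.5 ± 2.29 TPM in hypoxia-treated cells and 36.4 ± 1.82 TPM in normoxic cells (log2 fold change −0.67). Mnd1 itself was not called, with a log2 fold change of −0.13 that turned to 0.0079 under median-ratio scaling and 0.0287 under quantile normalization.

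Etv5, a factor of spermatogonial self-renewal that is also known downstream of growth factor signalling, was lower, at 11.4 ± 1.46 TPM in hypoxia-treated cells and 21.5 ± 0.523 TPM in normoxic cells (log2 fold change −0.87). Tdrd7, a granule protein, was lower, at 23.3 ± 0.917 TPM in hypoxia-treated cells and 30.3 ± 1.66 TPM in normoxic cells (log2 fold change −0.36). Taf4b was lower, at 1.42 ± 0.562 TPM in hypoxia-treated cells and 2.58 ± 0.245 TPM in normoxic cells, and its call was lost in 9 of the 17 alternatives. Sun1, which ties telomeres to the nuclear envelope, was higher, at 84.3 ± 8.29 TPM in hypoxia-treated cells and 57.7 ± 3.89 TPM in normoxic cells (log2 fold change 0.54). Odf2, a protein of sperm tail fibres and of centrioles, was higher, at 40.2 ± 7.88 TPM in hypoxia-treated cells and 26.9 ± 4.04 TPM in normoxic cells, a call lost in 5 of the 17 alternatives. Foxo1 (log2 fold change 0.31) and Tdrkh (0.34) were higher too, and the call of Tdrkh was lost in 9 of the 17 alternatives.

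Markers of other testis cells were read in the same libraries, and their part in the results above was not tested. Of 12 fibroblast and myoid markers, 8 were at a mean of at least 1 TPM (collagens, Pdgfra, Pdgfrb, Acta2, Tagln and Vim), and their sum was 6898 to 7111 TPM in hypoxia-treated cells and 3346 to 4300 TPM in normoxic cells, with Thy1 at 0. In hypoxia-treated cells Vim gave most of that sum. Vim had 4053 ± 102 TPM in hypoxia-treated cells and 1601 ± 507 TPM in normoxic cells, where normoxia replicate 1 was low at 1016 TPM. In normoxic cells the collagens Col1a1 and Col1a2 averaged 1161 and 1123 TPM, so Vim was not most of the sum there. Col1a1 was higher in hypoxia-treated cells, at 1719.6 TPM (limma adjusted p = 8.154e-05), and Col1a2 was not called. Other markers of the list went the other way, Pdgfra with 1.54 ± 0.218 TPM in hypoxia-treated cells and 5.02 ± 0.774 TPM in normoxic cells, and Pdgfrb with 1.45 ± 0.185 TPM in hypoxia-treated cells and 6.62 ± 0.207 TPM in normoxic cells (limma adjusted p = 0.0004334 and 4.577e-05). Of 10 Sertoli markers, 4 were at this level (Sox9, Gata4, Rhox5 and Inha), with a sum of 47.6 to 59.2 TPM in hypoxia-treated cells and 44.5 to 55.6 TPM in normoxic cells, and Fshr and Aard at 0. Gata4 gave most of this sum in TPM, and Gata4 and Rhox5 were not called. The coverage of Gata4 was 11.08 to 13.96 reads per base, beside 14.58 to 34.78 for Sox9, although Gata4 had the higher TPM. The reason for this difference was not tested. Sox9 was higher, at 13.3 ± 0.395 TPM in hypoxia-treated cells and 6.41 ± 0.533 TPM in normoxic cells (limma adjusted p = 0.0001398). Inha was higher too (limma adjusted p = 0.01038). Wt1, under the filter, had 0.751 ± 0.119 TPM in hypoxia-treated cells and 0.0616 ± 0.0382 TPM in normoxic cells without overlap. Of 8 Leydig markers, 3 were at this level (Star, Insl3 and Nr5a1), with a sum of 65.0 to 69.1 TPM in hypoxia-treated cells and 64.7 to 69.2 TPM in normoxic cells, and Hsd3b1 and Lhcgr at 0. Nr5a1 gave most of this sum, while Insl3 was higher, at 7.36 ± 1.57 TPM in hypoxia-treated cells and 2.65 ± 1.39 TPM in normoxic cells (limma adjusted p = 0.007782), and Cyp11a1, under the filter, had 0.0520 ± 0.0245 TPM in hypoxia-treated cells and 0.848 ± 0.439 TPM in normoxic cells without overlap. Of 4 macrophage markers, Cd68 and Csf1r were at this level, with a sum of 10.5 to 11.5 TPM in hypoxia-treated cells and 7.20 to 8.11 TPM in normoxic cells, and Ptprc and Adgre1 at 0. The 4 endothelial and 4 epithelial markers were all under a mean of 1 TPM.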

How the data were processed

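Poly(A) RNA of 6 GC-2spd libraries was sequenced in pairs on a NovaSeq. Per the labels, the authors used cutadapt for trimming, HISAT2 for alignment (mm10) and StringTie for abundances; versions, annotation release and strand setting are not given in the sources used here. The deposited coverage is a mean read depth per base, and the deposited FPKM is scaled for length and aligned fragments. The deposited TPM is treated as a score, since assembled loci, which sum to 1000000, and annotated genes (948283.6 to 981417.5) are listed together; only annotated genes were used, unscaled, although an ordinary TPM table had been assumed. Counts were not used here, so depth was calculated as coverage over FPKM (5.75 to 6.72 aligned gigabases) without counting intervals.

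Of 43432 gene IDs, 42462 were matched to GENCODE mouse release 21 symbols, TPM was summed per symbol, and the other 970 kept their ID. The test was limma 3.58.1 (variance trend, 2-sided; R 4.3.3) on log2(TPM + 1) of all genes whose mean TPM reached 1, with Benjamini-Hochberg adjustment over all tested genes and a threshold of 0.05; the steps were tested on simulated data. The authors used edgeR. Levels of members under the filter were compared by an exact permutation test where the higher group reached 0.5 TPM. Alternatives were other scalings, FPKM, pseudocounts, filters, gene sets, variance models, a replicate block and leaving out each library. Promoter windows came from RefSeq, and gene spans and exon overlaps from GENCODE mouse release 21. Of the matched genes, 78.8% had the same start and end in the deposited values.

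The members and lists were chosen with earlier results of these data known. Libraries were printed singly for members of at least 0.5 TPM in the higher group, and 11 counterparts and all called genes of the second list were named; values of other members were added after they had been seen. The list of counterparts was longer than these 11, and the rest of it is not reported here.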

Additional observations from a re-analysis of the deposited data

How the results depend on the processing

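Each alternative changed 1 choice, except that the fit on protein-coding genes only also rescaled TPM to those genes. Of 702 recomputed values, 629 were classed as the same, 38 lost a call, 11 gained one, 20 moved and 4 turned in sign. The same meant an unchanged direction and side of the threshold for a fold change of 1 gene, and a value within the spread for medians and differences. For counts it meant a count near the main one, so that 3 members called lower with FPKM, beside 2, were classed as the same. Syce2 stayed the only member called higher under each of them, and leaving out a library gave a count of 1 each time. The count of members called lower, 2 in the main comparison, was 1 with median-ratio scaling, 0 with quantile normalization (limma, where 1 member was lower at an unadjusted p under 0.05) and 1 to 2 leaving out 1 library, where Msh5 was the call lost. Prdm9 was called with FPKM (−0.27, limma adjusted p = 0.03636). Over the members the median change (log2) stood at −0.169 under median-ratio scaling, −0.0886 under quantile normalization, −0.352 with a pseudocount of 0.1, −0.0711 with 14 members at a mean TPM of at least 0.1, −0.0245 with 35 members and no filter, and −0.41 to −0.21 leaving out 1 library. Without 1 library, the other germ line genes gave 2 to 3 higher and 5 to 6 lower calls, the difference was −0.1471 to 0.0099 TPM for Gfra1 and 0.0216 to 0.3661 TPM for Ovol1. At 0.1 TPM, 16 members reached the level in normoxic cells. Under median-ratio scaling the log2 fold change turned to 0.0301 for Ythdc2 and 0.0079 for Mnd1, and under quantile normalization to 0.0977 for Ythdc2 and 0.0287 for Mnd1; none of these was called. Over all genes, 33.1% of calls were higher, beside 49.2% under median-ratio scaling and 49.6% under quantile normalization. The cause of these shifts was not tested.

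Replicate numbers are shared between the groups, but same-numbered libraries did not deviate together (correlations of 0.0259, 0.0333 and 0.0109), so they were not treated as pairs, and hypoxia replicate 3 did not correlate best with its own number. With the replicate number as a block, 2281 genes were higher and 4674 lower, beside 2463 and 4967 without it, and the count of members called lower was 1, since Msh5 stood at an adjusted p of 0.05336 in limma.

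The zeros and fractions of a TPM of the 50 members under the filter carry no counts, so what depth allowed to be seen there is unknown, and 3 libraries per group cannot give a permutation p under 0.1. All values come from one line, 6 libraries and gene-level sums, which do not tell transcript forms, strands or start sites apart.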

Other observations

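Of the second germ line list, Rec114, a partner of MEI4 in break formation, had 1.36, 1.06 and 1.16 TPM in hypoxia-treated cells, against 0.716, 0.520 and 0.421 TPM in normoxic cells, with a mean under the filter of 1 TPM. It shares 344 exon bases with Nptn on the opposite strand, which stood at 141 TPM in hypoxia-treated cells and 114 TPM in normoxic cells. Gapdhs, the glyceraldehyde-3-phosphate dehydrogenase of sperm, had 1.17, 0.582 and 1.35 TPM in hypoxia-treated cells, against 0.625, 0.232 and 0.520 TPM in normoxic cells, and these groups overlapped. It shares 162 exon bases with Tmem147os on the opposite strand, which stood at 8.05 TPM in hypoxia-treated cells and 4.78 TPM in normoxic cells. Tssk6, a kinase of spermatids, had 0.242, 0.171 and 0.197 TPM in hypoxia-treated cells, against 0.423, 0.568 and 0.910 TPM in normoxic cells, and shares 375 exon bases with Ndufa13, which stood at 119 TPM in hypoxia-treated cells and 151 TPM in normoxic cells. In Rec114 and Tssk6 the hypoxic and normoxic libraries did not overlap, and for both genes the overlapping neighbour had its higher mean in the same group. The part of the neighbour in these values was not tested. The 3 genes were chosen after their values were seen.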
